A study of Mus musculus with 22 samples.

Results

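Expression of 10 immediate early genes was examined in the spinal cord of mice with knee joint pain. The genes were Fos, Fosb, Jun, Junb, Egr1, Egr2, Nr4a1, Arc, Ier2 and Btg2, found by gene symbol among the 17306 genes of the table, and all 10 were among the 16765 genes that passed the filter on low values. RNA sequencing was performed on L4-L6 cord, taken according to the methods from the ipsilateral quadrants of the dorsal horn, of 22 wildtype C57BL6J mice aged 12 to 14 weeks at collection. All mice were given 1 mg monoiodoacetate (MIA) into the knee joint, a blocker of glycolysis toxic to cartilage cells, so that no uninjured mice enter the comparisons. SAFit2, a selective inhibitor of the stress-related co-chaperone FKBP51, was given at 100 mg/kg in a vesicular phospholipid gel (VPG) for slow release. Vehicle mice received the gel alone. Gel was injected on days -3 and 4 in the 5 Early SAFit2 and 6 Early Vehicle mice, and on days 20 and 27 in the 5 Late SAFit2 and 6 Late Vehicle mice, while cord was collected on day 30. The labels give early and late also as batches, so that timing and batch cannot be told apart. The questions were whether these genes differed between SAFit2 and Vehicle within each timing, and which of them moved together from mouse to mouse.

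Immediate early genes are transcribed within minutes of a stimulus without need for new protein, because their promoters are already bound by factors such as SRF and CREB that are switched on by calcium and MAP kinase signals. In the dorsal horn they are classical markers of neurons activated by noxious input, above all Fos. They also respond to handling, anaesthesia and dissection, and several of them are expressed by glia and vascular cells. Fos and Fosb pair with Jun or Junb to form the AP-1 transcription factor. Egr1 and Egr2 are zinc finger transcription factors, of which Egr2 is also the master regulator of myelination in Schwann cells. Nr4a1 is an orphan nuclear receptor, Arc regulates AMPA receptor removal at synapses, Ier2 encodes a nuclear protein, and Btg2 restrains cell proliferation.

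Promoter sequence was available from RefSeq (GRCm38.p6) for 7 of the 10 genes, Fos, Fosb, Jun, Junb, Egr2, Nr4a1 and Btg2. The 250 bases before the transcript start are shown for 4 genes that behaved differently in these data: Fos, which moved with Egr1, Junb, which followed the GC content of the libraries, Egr2, which followed Pmp22 and Mfap5, and Btg2, which moved with none of the other genes beyond the test. The last of these also held for Jun and Egr2 among the 10 genes. For Egr2 the table gives 5 starts, of which 1 is shown. Capitals mark the core motif of the cAMP response element (TGACG, or CGTCA on the other strand) and the CArG box bound by SRF.
Fos, chr12:85473640-85473889, plus strand: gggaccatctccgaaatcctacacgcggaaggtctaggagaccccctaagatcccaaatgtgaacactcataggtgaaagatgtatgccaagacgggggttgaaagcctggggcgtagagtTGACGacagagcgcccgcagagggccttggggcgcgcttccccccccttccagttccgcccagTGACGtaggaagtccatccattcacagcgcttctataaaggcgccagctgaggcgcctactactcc
Junb, chr8:84978749-84978998, minus strand: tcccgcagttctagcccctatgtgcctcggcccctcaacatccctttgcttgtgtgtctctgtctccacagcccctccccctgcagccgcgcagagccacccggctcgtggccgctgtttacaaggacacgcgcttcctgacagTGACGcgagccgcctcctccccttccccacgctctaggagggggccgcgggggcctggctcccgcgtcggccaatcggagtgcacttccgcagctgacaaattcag
Egr2, chr10:67537619-67537868, plus strand: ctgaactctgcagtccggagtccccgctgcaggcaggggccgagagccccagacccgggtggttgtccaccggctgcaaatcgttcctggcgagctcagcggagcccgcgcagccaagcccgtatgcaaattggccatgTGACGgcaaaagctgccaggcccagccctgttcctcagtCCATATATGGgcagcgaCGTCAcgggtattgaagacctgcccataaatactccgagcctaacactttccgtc
Btg2, chr1:134079156-134079405, minus strand: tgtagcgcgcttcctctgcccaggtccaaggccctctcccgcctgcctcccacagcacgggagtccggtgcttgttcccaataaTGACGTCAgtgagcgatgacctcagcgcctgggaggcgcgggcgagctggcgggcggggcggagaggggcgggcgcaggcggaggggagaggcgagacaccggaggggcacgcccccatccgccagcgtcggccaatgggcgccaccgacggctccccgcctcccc
None of the 4 windows overlapped an exon of GENCODE M21, and that of Egr2 lies inside the annotated gene, between exons. The core motif was found in 6 of the 7 genes and in 17.8% of the 32851 promoters of that table. The units differ, since Egr2 counts as 1 gene over any of its 5 windows, while shares of all promoters are per window. In Fos the motif begins 129 and 66 bases before the start. In Btg2, core motifs on both strands overlap and make up the full element TGACGTCA, held by 1.55% of all promoters. A CArG box was found in 1.47% of all promoters and, among the 7 genes, only in Egr2, where it begins 72 bases before the start. These windows are short, and motifs farther upstream were not searched.

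Per length of annotated exons (RPKM, reads scaled to library size and length), Jun was expressed highest, at a mean of 11.9 RPKM over the 22 mice, followed by Egr1 at 9.33, Fos at 8.16 and Arc at 7.21 RPKM. Junb had 3.42 RPKM, while Nr4a1 (2.63), Ier2 (2.62) and Btg2 (2.40) were not separable by their spread. Egr2 had 1.69 and Fosb 0.346 RPKM. On the log2 scale, the SD over mice was 0.23 for Jun and 0.27 for Egr1. The log2 of their mean RPKM (3.57 and 3.22) lay farther apart than either SD, whereas neighbours from Egr1 down to Arc differed by less than their SD. Junb, whose mean RPKM is 1.77 as log2, lay below Arc (2.85) by more than the SD of either (0.64 and 0.50). Fosb was thinly covered, with 10 to 72 reads per library, whereas Egr1 had 259 to 1146 reads.

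The genes differed in how constant they were. Within groups, the SD of log2 CPM (counts per library size, log-transformed) was 0.19 for Jun, a value under which lay 15.9% of all genes tested. For Egr2 it was 1.15, and 97.6% of genes varied less. The median over the 10 genes was 0.40 against 0.32 for all genes, and 8 of the 10 lay above that median. The lowest and highest mouse differed 1.91-fold for Jun, 2.70-fold for Fos and 39.6-fold for Egr2.

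**Figure D1:**
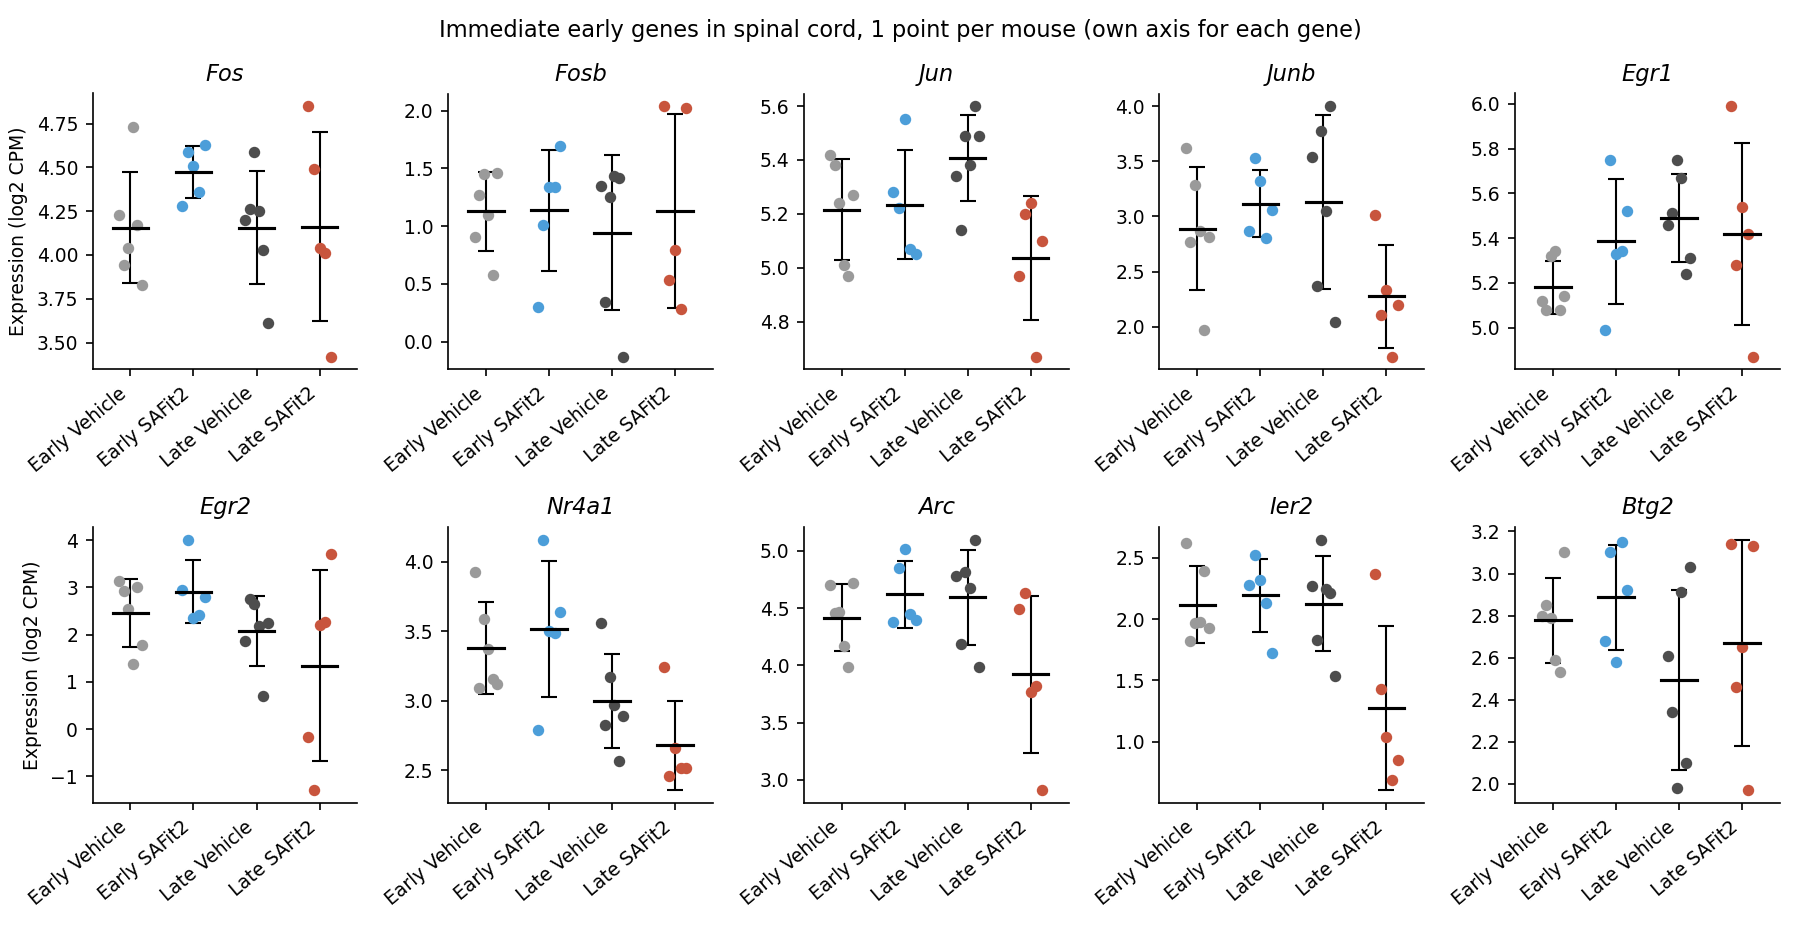
Expression of the 10 genes (log2 CPM, own vertical axis for each gene) in Early Vehicle (n = 6), Early SAFit2 (n = 5), Late Vehicle (n = 6) and Late SAFit2 (n = 5) mice. Points are single mice, horizontal lines group means and bars the SD. Jun, Junb, Egr2, Nr4a1, Arc and Ier2 have their lowest group mean in Late SAFit2 mice, and Egr2 falls to -1.29 in 1 of these mice.

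Several measures of the libraries differed between the groups and bear on what follows. Depth was 11352989 to 24433349 reads on genes. The GC slope of a library, that is how much higher its GC-rich genes read than in the mean library, was -0.295 ± 0.164 log2 CPM per 10 percentage points of GC (SD, n = 5) in Late SAFit2 and 0.166 ± 0.329 (SD, n = 6) in Late Vehicle mice. The neuronal transcript Bc1 took 3.31 to 16.5% of reads in Late SAFit2 and 0.623 to 11.9% in the other groups. Markers of cord cells were present throughout, the 8 neuron markers summing to 3910 to 5470 CPM and the 5 oligodendrocyte markers to 13900 to 31300 CPM. The 8 neuron markers summed to 5000 to 5470 CPM in Late SAFit2 and 4260 to 5110 CPM in Late Vehicle mice, but Snap25 made up 54.1 to 71.1% of that sum. Without Snap25, the other 7 summed to 1690 to 1880 CPM in Late SAFit2 and 1870 to 1980 CPM in Late Vehicle mice. The late log2 fold changes of the 8 had a median of 0.07, from 0.37 for Snap25 and 0.34 for Slc17a6 to -0.51 for Tubb3 and -0.55 for Slc32a1, and the last of these was the 1 marker called. The 5 ependymal markers summed to a mean of 26.9 CPM and no more than 43.5 CPM in Late SAFit2 mice, and to a mean of 47.0 CPM (30.5 to 62.7 CPM) in Late Vehicle mice. All 5 had a late log2 fold change below 0, Foxj1 (-0.77) and Rarres2 (-0.86) were called lower, and after GC and length correction the median was -0.72 and none was called. Early SAFit2 mice had a mean sum of 24.5 CPM and Early Vehicle mice one of 33.0 CPM. The early log2 fold changes of the 5 had a median of -1.67, with 4 below 0 and none called. Over both timings all 5 were lower at a nominal limma p under 0.05, a threshold that 13.2% of all genes passed. The part of ependymal cells in the late result was not tested. All 5 skeletal muscle markers were listed, summing to 2.30 to 196 CPM in Late SAFit2 mice and to no more than 8.92 CPM elsewhere. In a set of 5 peripheral markers, Scn10a, Trpv1 and Mrgprd were not in the table, while Avil of sensory neurons and Prx of Schwann cells were, the latter at high levels. Late SAFit2 replicates 1 and 2 stood apart: Prx was at 5.38 and -0.36 log2 CPM there, and Prx, Pmp22, Drp2, Dcn and Mfap5 were lowest in these 2 libraries among all 22. Values are therefore also given without them where that matters.

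After late treatment, 2 of the 10 genes differed between SAFit2 and Vehicle at an adjusted p under 0.05 and a change of at least 1.2-fold, Ier2 (chromosome 8, 84661331 to 84662852, minus strand, GRCm38) and Jun (chromosome 4, 95049034 to 95052222, minus strand), and both were lower in SAFit2 mice. In this comparison 12.1% of all genes tested were called. The log2 fold change was below 0 for 7 of the 10 genes, with a median of -0.35 against -0.05 over all genes, and 53.9% of all genes were below 0. At a nominal p under 0.05, Ier2, Jun, Junb and Arc were lower and no gene was higher, where 19.0% of all genes were lower. For none of the 10 did the groups separate completely, which 1.71% of genes did. Tissue was sequenced in bulk, so fewer expressing cells and less RNA per cell cannot be told apart.

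Among the AP-1 components Fos, Fosb, Jun and Junb, Jun was the most abundant. Jun read 4.97, 5.20, 5.24, 4.67 and 5.10 log2 CPM in the Late SAFit2 mice and 5.34, 5.14, 5.49, 5.38, 5.60 and 5.49 in Late Vehicle mice. Only the lowest Vehicle mouse was below the highest SAFit2 mice. Jun was lower by 0.37 on the log2 scale (log2 fold change -0.37, SE 0.12, limma adjusted p = 0.0497, exact permutation p = 0.00866, two-sided). Ier2 read 2.37, 1.43, 1.04, 0.69 and 0.85 log2 CPM in Late SAFit2 mice, while Late Vehicle mice ranged from 1.54 to 2.65 with a median of 2.23. All but 1 of the 5 treated mice were thus below every Vehicle mouse, and replicate 1 was above the Vehicle median. The log2 fold change of Ier2 was -0.85 (SE 0.27, limma adjusted p = 0.0443, exact permutation p = 0.0390).

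Junb, an AP-1 subunit that competes with Jun, read 3.01, 2.11, 2.33, 1.73 and 2.20 log2 CPM in Late SAFit2 mice. Late Vehicle mice spread from 2.04 to 4.00 with a median of 3.29, and 2 of them lay within the range of treated mice. Its log2 fold change of -0.85 was as large as that of Ier2, but with the wider spread it missed the threshold (95% confidence interval -1.50 to -0.20, limma adjusted p = 0.0657, exact permutation p = 0.0671). Arc read 4.49, 4.63, 3.77, 3.82 and 2.91 in Late SAFit2 mice and 3.99 to 5.10, median 4.73, in Late Vehicle mice. The 3 lowest mice were all treated, whereas replicates 1 and 2 were in the Vehicle range (log2 fold change -0.67, 95% confidence interval -1.16 to -0.18, limma adjusted p = 0.0600). Nr4a1 had 4 treated mice between 2.46 and 2.66 and the other at 3.24, against 2.57 to 3.56 in Vehicle mice, with a log2 fold change of -0.32 (limma adjusted p = 0.311).

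Fos, the usual marker of activated dorsal horn neurons, had the same mean of 4.16 log2 CPM in both late groups. Treated mice read 4.85, 4.49, 4.04, 4.01 and 3.42, and Vehicle mice 3.61 to 4.59, so that the treated mice held both the highest and the lowest value. The 95% confidence interval of the log2 fold change was -0.41 to 0.42, which leaves room for changes of that size in either direction. Fosb had a log2 fold change of 0.19 (interval -0.56 to 0.94), Egr1 of -0.07 (-0.38 to 0.24) and Btg2 of 0.18 (-0.29 to 0.64). Egr2 had -0.72 with an interval of -1.95 to 0.50, the widest of the 10.

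These late differences moved with the GC content of the genes. Transcripts of the immediate early genes were GC-rich, with a median of 56.5% against 49.7% for all genes, and 9 of 10 were above that value. Among the 739 genes of at least 60% GC, the median late log2 fold change was -0.64 and 34.0% were called. Junb (62.6% GC) and Ier2 (60.9% GC), both at -0.85, belong to this class. The 2937 genes of 55 to 60% GC had a median of -0.44, and the 5 members among them, Jun, Egr1, Arc, Nr4a1 and Fosb, one of -0.32. Genes of 40 to 45% GC had a median of 0.30. After removal of the trend of each library on GC content and length, none of the 10 genes was called, nor was any of the 16213 genes with a GC value (limma, 0.0% against 12.5% of these genes before correction). In that fit Ier2 stood at -0.36 (adjusted p = 0.432), Jun at -0.07, Junb at -0.26, Arc at -0.20 and Egr1 at 0.34. A true effect of treatment on GC-rich genes would be removed by this correction too.

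**Figure D2:**
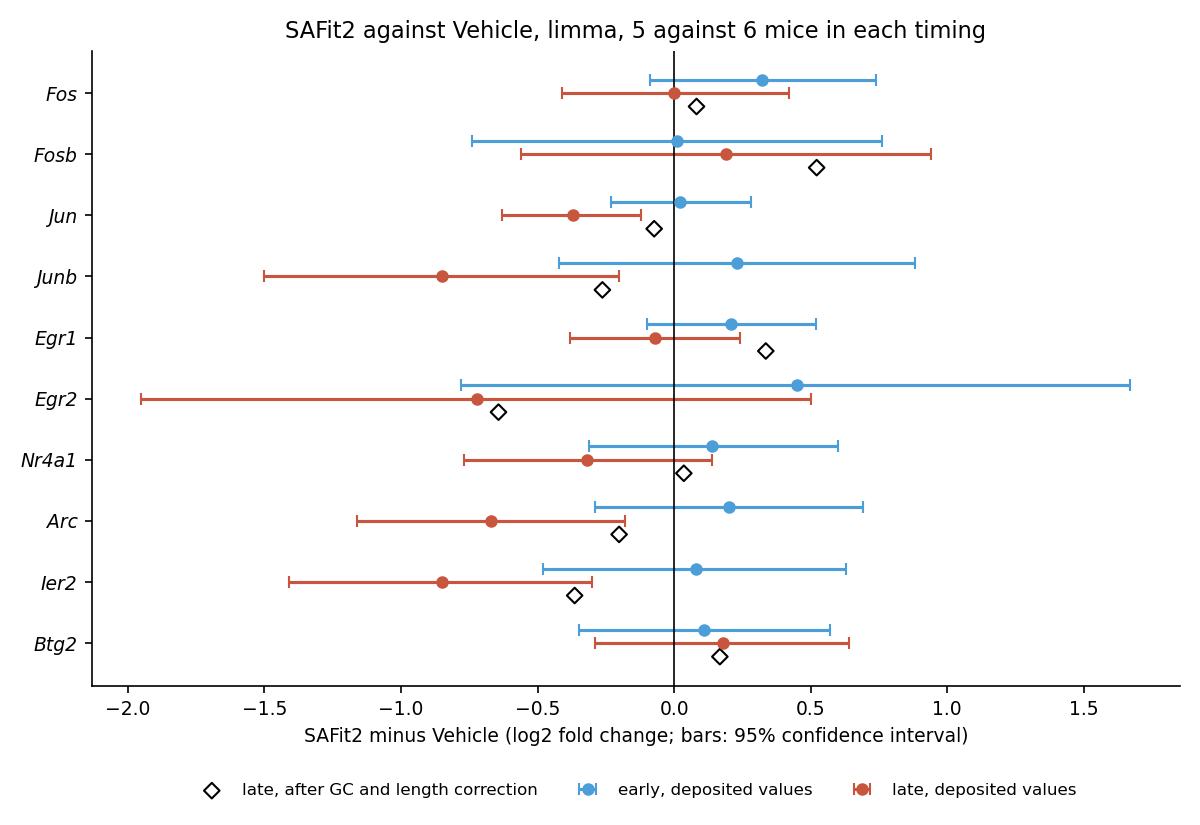
Log2 fold change of SAFit2 against Vehicle for each gene, after early (blue) and late (red) treatment, with 95% confidence intervals from limma, and late values after GC and length correction (open diamonds, no interval shown). Late intervals of Jun, Junb, Arc and Ier2 lie below 0 while all early intervals include 0, and the diamonds of 9 of 10 genes lie to the right of the late points.

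Without Late SAFit2 replicates 1 and 2, which stood apart in the genes given above, 2 of the 10 genes were called in the late comparison, Ier2 and Arc, against 16.4% of all genes. The log2 fold change of Ier2 was then -1.27 (SE 0.26, limma adjusted p = 0.0189) and that of Arc -1.09 (SE 0.24, limma adjusted p = 0.0214). These 2 mice, chosen for the lowest Pmp22, held the 2 highest treated values of Ier2 (2.37 and 1.43), Arc (4.49 and 4.63) and Fos (4.85 and 4.49). Leaving them out therefore lowers the treated mean of these genes by the choice itself. Jun stood at -0.41 (limma adjusted p = 0.0584) and Junb at -1.04 (limma adjusted p = 0.0505). Fos stood at -0.34 (limma adjusted p = 0.229). The count also moved with single mice, and the share of all genes called moved with it. It was 4 without Late Vehicle replicate 2 or replicate 6, where 22.6% and 29.7% of all genes were called. It was 0 without any one of Late SAFit2 replicates 2, 4 and 5 and Late Vehicle replicates 1, 3, 4 and 5, where 0.00596 to 0.0477% of all genes were called. It was also 0 without Early Vehicle replicate 2, 3 or 6 or Early SAFit2 replicate 4 (7.09 to 8.95% of all genes), and 1 without Late SAFit2 replicate 3 or Early SAFit2 replicate 1, 2 or 5 (8.20 to 12.8% of all genes).

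After early treatment, none of the 10 genes was called, and neither was any other gene (limma, 0.0% called), while 416 genes (2.48%) and none of the 10 had a nominal p under 0.05. All 10 log2 fold changes were above 0, between 0.01 for Fosb and 0.45 for Egr2 with a median of 0.17, where 48.3% of all genes were below 0. Fos read 4.28, 4.59, 4.51, 4.36 and 4.63 log2 CPM in the Early SAFit2 mice and 3.83 to 4.73, median 4.10, in Early Vehicle mice. All 5 treated mice were higher than 5 of the 6 Vehicle mice, and 1 Vehicle mouse was higher than all treated mice. The difference was 0.32 (SE 0.20, limma adjusted p = 1, exact permutation p = 0.0758). Egr1 had 0.21 (SE 0.15) and Junb 0.23 (SE 0.32).

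The early and the late effect were also compared directly. None of the 10 genes passed the adjusted threshold for this difference (0.0% of all genes called, of which 4167 or 24.9% had a nominal p under 0.05). At a nominal p under 0.05, the early effect exceeded the late one for Arc by 0.87 (exact permutation p = 0.0314), for Junb by 1.09 (exact permutation p = 0.0433), for Ier2 by 0.93 (exact permutation p = 0.0339) and for Jun by 0.39 (exact permutation p = 0.0411). Among all genes, 14.0% were higher in this direction at a nominal p under 0.05. Limma adjusted p-values of the 4 genes were between 0.135 and 0.168. Over both timings together, none of the 10 genes had a nominal p under 0.05 for SAFit2 against Vehicle, against 13.2% of all genes. Ier2 had a log2 fold change of -0.39 (exact permutation p = 0.0815) and Jun one of -0.18 (exact permutation p = 0.0731).

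Among Vehicle mice, Late against Early, none of the 10 genes was called, against 9.11% of all genes. Egr1, which marks recent neuronal activity, was 5.08 to 5.34 log2 CPM in Early Vehicle and 5.24 to 5.75 in Late Vehicle mice, with 4 of 6 late mice above every early mouse. It was higher in late mice by 0.31 (SE 0.14, exact permutation p = 0.0130, limma adjusted p = 0.183). Nr4a1 was lower by 0.38 on the log2 scale (log2 fold change -0.38, limma adjusted p = 0.281).

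Some of the genes moved together from mouse to mouse. After subtraction of group means, the median Pearson correlation over the 45 pairs was 0.25, against 0.00 over all pairs of genes tested, and 9 pairs (20.0%) exceeded 0.5, against 8.72% of all pairs. By permutation of mice within groups, 5 pairs had an adjusted p under 0.05 over the 45 pairs, all positive. Fos and Egr1 had the highest correlation (r = 0.741, rho = 0.677, n = 22, permutation p = 7e-04 for r and 0.00184 for rho, adjusted p = 0.0256 for r). Leaving out the 2 mice farthest from the median, r was 0.507. Within early mice r was 0.520 and within late mice 0.828. Among all 16764 other genes, Fos had rank 9 in similarity to Egr1, and Egr1 rank 37 in similarity to Fos.

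Egr1 and Nr4a1 also moved together (r = 0.670, rho = 0.706, permutation p = 0.0017 and 0.00062, adjusted p = 0.0256), with 0.672 after leaving out 2 mice and 0.786 and 0.636 within early and late mice. Egr1 had rank 44 in similarity to Nr4a1. The other 3 pairs contained Junb. Junb moved with Arc (r = 0.645, rho = 0.633, permutation p = 0.00171 and 0.00434, adjusted p = 0.0256), with Fosb (r = 0.640, rho = 0.592, permutation p = 0.00282 and 0.0106, adjusted p = 0.0317) and with Ier2 (r = 0.608, rho = 0.518, permutation p = 0.00367 and 0.0247, adjusted p = 0.0330). Leaving out 2 mice, these r were 0.542, 0.502 and 0.579. Within early mice they were 0.737, 0.293 and 0.230, and within late mice 0.617, 0.783 and 0.764. Fos with Ier2 did not pass (r = 0.654, rho = 0.608, permutation p = 0.01 and 0.00951, adjusted p = 0.075), with 0.475 after leaving out 2 mice, 0.086 within early and 0.848 within late mice. Among all genes, Arc had rank 2243 in similarity to Junb.

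The GC and length correction lowered these values. Afterwards the median over the 45 pairs was 0.05, 1 pair exceeded 0.5 (Fos and Ier2, r = 0.546), and none had an adjusted p under 0.05. Fos and Egr1 stood at 0.414 (permutation p = 0.099, adjusted p = 0.505), Egr1 and Nr4a1 at 0.479 (permutation p = 0.0358, adjusted p = 0.405), and Fosb and Junb at 0.443 (permutation p = 0.036, adjusted p = 0.405). Junb with Arc stood at 0.184 and with Ier2 at 0.092.

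**Figure D3:**
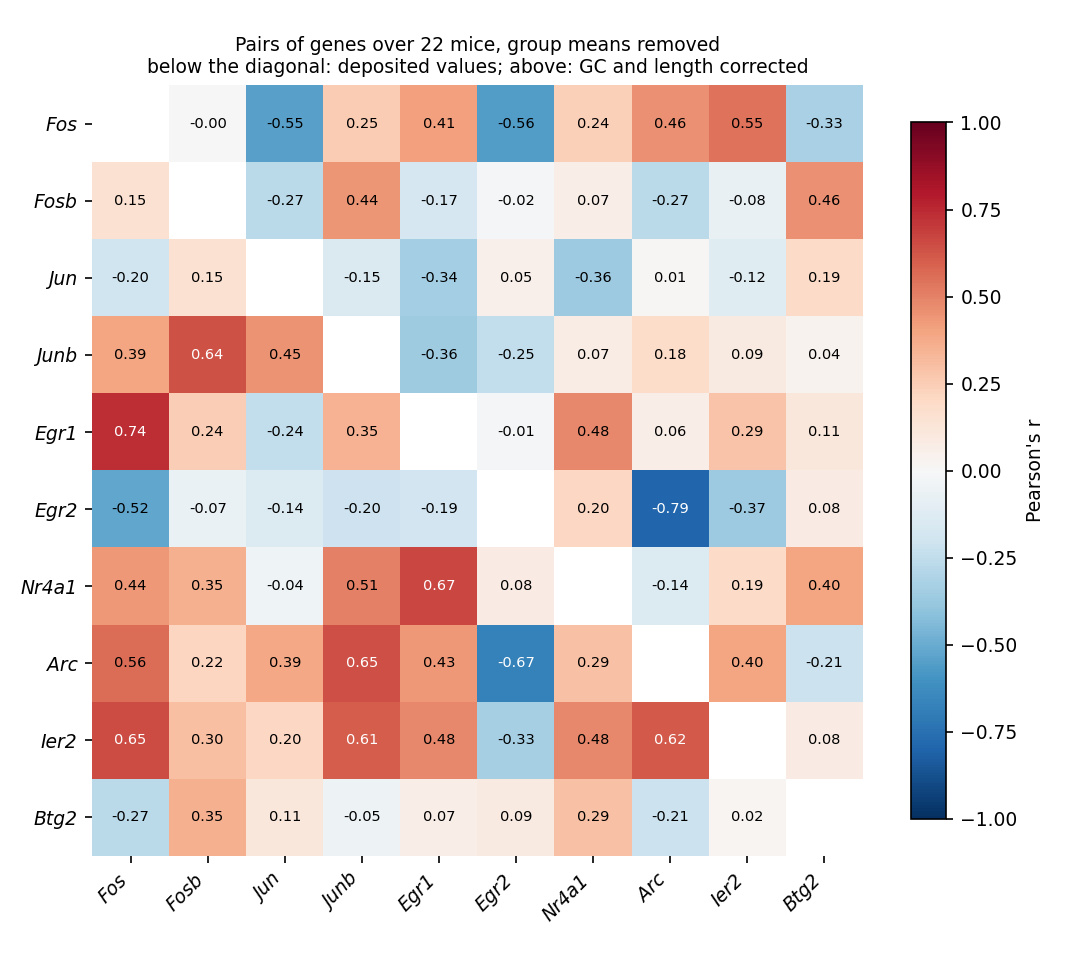
Pearson correlation of each pair of the 10 genes over 22 mice after subtraction of group means, for the deposited values (below the diagonal) and after GC and length correction (above it). Fos with Egr1 (0.74) and Egr1 with Nr4a1 (0.67) are the highest pairs below the diagonal, the row and column of Egr2 are mostly blue or pale, and the median over the pairs is 0.25 below and 0.05 above the diagonal.

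Junb followed the GC slope of its library more closely than any other of the 10 genes (r = 0.922, rho = 0.868, n = 22, permutation p = 1e-05, the smallest that 100000 permutations can give, for r and 3e-05 for rho, adjusted p = 0.0014 over 140 relations of the genes with library measures). Leaving out 2 mice, r was 0.882, and it was 0.838 within early and 0.961 within late mice. Arc (r = 0.698, rho = 0.755, permutation p = 0.00025 and 0.00022, adjusted p = 0.0056) and Ier2 (r = 0.667, rho = 0.653, permutation p = 0.00059 and 0.00281, adjusted p = 0.00826) followed it as well. Without 2 mice, r was 0.626 for Arc and 0.605 for Ier2. Within early and late mice it was 0.832 and 0.656 for Arc, and 0.379 and 0.775 for Ier2. Btg2 (r = -0.057) and Egr2 (r = -0.188) did not follow it beyond the test. These values touch the late result, since 3 of the 4 genes with a nominal late p under 0.05 are among those that follow the slope.

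Junb and Arc were lower in mice with a higher level of Snap25, a synaptic protein of neurons. Through it, the summed level of the 8 neuron markers was inversely related to Junb (r = -0.786, rho = -0.770, permutation p = 0.0001 and 0.00027, adjusted p = 0.0035) and to Arc (r = -0.675, rho = -0.779, permutation p = 4e-05 and 1e-05, adjusted p = 0.0028). Leaving out 2 mice, r was -0.802 and -0.711. Within early mice it was -0.658 and -0.775, and within late mice -0.954 and -0.705. Without Snap25, r of the sum was 0.361 with Junb and 0.001 with Arc, and with the mean log2 CPM of the 8 markers 0.178 and -0.101. For single markers, r with Junb ran from -0.821 for Snap25 and -0.686 for Slc17a6 to 0.706 for Tubb3 and 0.897 for Slc32a1. The sign went with the GC content of the marker, for Junb and for Arc. It was negative for Snap25 (38.7% GC), Slc17a6 (42.9%), Gad2 (44.1%), Syt1 (45.8%) and Gad1 (47.3%). It was positive for Tubb3 (57.9%), Rbfox3 (58.6%) and Slc32a1 (61.9%). The markers of neurons as a whole therefore did not move with Junb or Arc in one direction. Arc was also lower where Bc1 took more of the reads (r = -0.680, rho = -0.675, permutation p = 0.00028 and 0.00145, adjusted p = 0.0056, -0.682 without 2 mice, -0.715 in early and -0.768 in late mice). Junb was related further to the microglia markers (r = -0.690, rho = -0.702, permutation p = 0.00035 and 0.00056, adjusted p = 0.00576, -0.760 without 2 mice, -0.806 in early and -0.635 in late mice) and to the blood cell markers (r = 0.714, rho = 0.860, permutation p = 0.00037 and 2e-05, adjusted p = 0.00576, 0.774 without 2 mice, 0.527 in early and 0.794 in late mice). Arc was also related to the scaling factor of the library (r = 0.615, rho = 0.508, permutation p = 0.0021 and 0.0217, adjusted p = 0.0267, 0.595 without 2 mice, 0.652 in early and 0.709 in late mice). The part of cell content, scaling or GC content in the differences between groups was not tested beyond the correction above.

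Egr2 stood apart from the other 9 genes. Its most similar member was Btg2, at r = 0.091 and rank 6177 of 16764 genes, and its correlation with Arc was the lowest of the 45 pairs (r = -0.674, rho = -0.483, permutation p = 0.0122 and 0.0582, adjusted p = 0.0784). Leaving out 2 mice, it was -0.405, and within early mice 0.090 and within late mice -0.869. The next lowest pairs were Egr2 with Fos (r = -0.523, adjusted p = 0.262 by permutation) and Egr2 with Ier2 (r = -0.332, adjusted p = 0.588 by permutation). Egr2 read -0.17, -1.29, 2.21, 2.27 and 3.70 log2 CPM in Late SAFit2 mice, from 4 to 115 reads. Replicates 1 and 2 were below all other mice of the study and replicate 5 was above all but 1. Late Vehicle mice ranged from 0.70 to 2.76 with a median of 2.22, Early SAFit2 mice read 2.95, 4.01, 2.35, 2.42 and 2.79, and Early Vehicle mice ranged from 1.37 to 3.13 with a median of 2.73. Without Late SAFit2 replicates 1 and 2, the late log2 fold change turned from -0.72 to 0.66 (SE 0.46, limma adjusted p = 0.298). These mice were chosen for low Pmp22, which Egr2 follows, and they were the lowest of all in Egr2. Leaving them out was thus bound to raise the treated mean.

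The 10 genes most similar to Egr2 were chosen after their values were seen and are given as a description over 22 mice. Mfap5, a protein of elastic microfibrils, had r = 0.971 and Pmp22, a protein of peripheral myelin, 0.968. They were followed by Arhgap19 (0.946), Dcn, a proteoglycan of fibroblasts (0.943), Gas2l3 (0.932), Cav1 of caveolae (0.929), Sostdc1 (0.926), Lox, which crosslinks collagen (0.922), Ogn (0.922) and Drp2, part of the periaxin complex of Schwann cells (0.920). After GC and length correction, 5 of these were again among the 10 most similar. With Pmp22, r was 0.940 within early and 0.980 within late mice, 0.940 after leaving out 2 mice and 0.953 after GC and length correction. Among the marker sets, Egr2 followed the sum of Prx and Avil (r = 0.826, rho = 0.726, permutation p = 0.00018 and 0.0013, adjusted p = 0.00504) and the meningeal fibroblast markers (r = 0.906, rho = 0.814, permutation p = 7e-05 and 0.0004, adjusted p = 0.00327). Leaving out 2 mice, r was 0.663 and 0.790. Within early mice it was 0.757 and 0.692, and within late mice 0.847 and 0.961. The Schwann cell and sensory neuron set was dominated by Prx, and summed to 0.739 to 331 CPM in Late SAFit2, 109 to 224 in Late Vehicle, 165 to 384 in Early SAFit2 and 96.5 to 448 in Early Vehicle mice. The part of attached nerve root in the level of Egr2 was not tested.

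**Figure D4:**
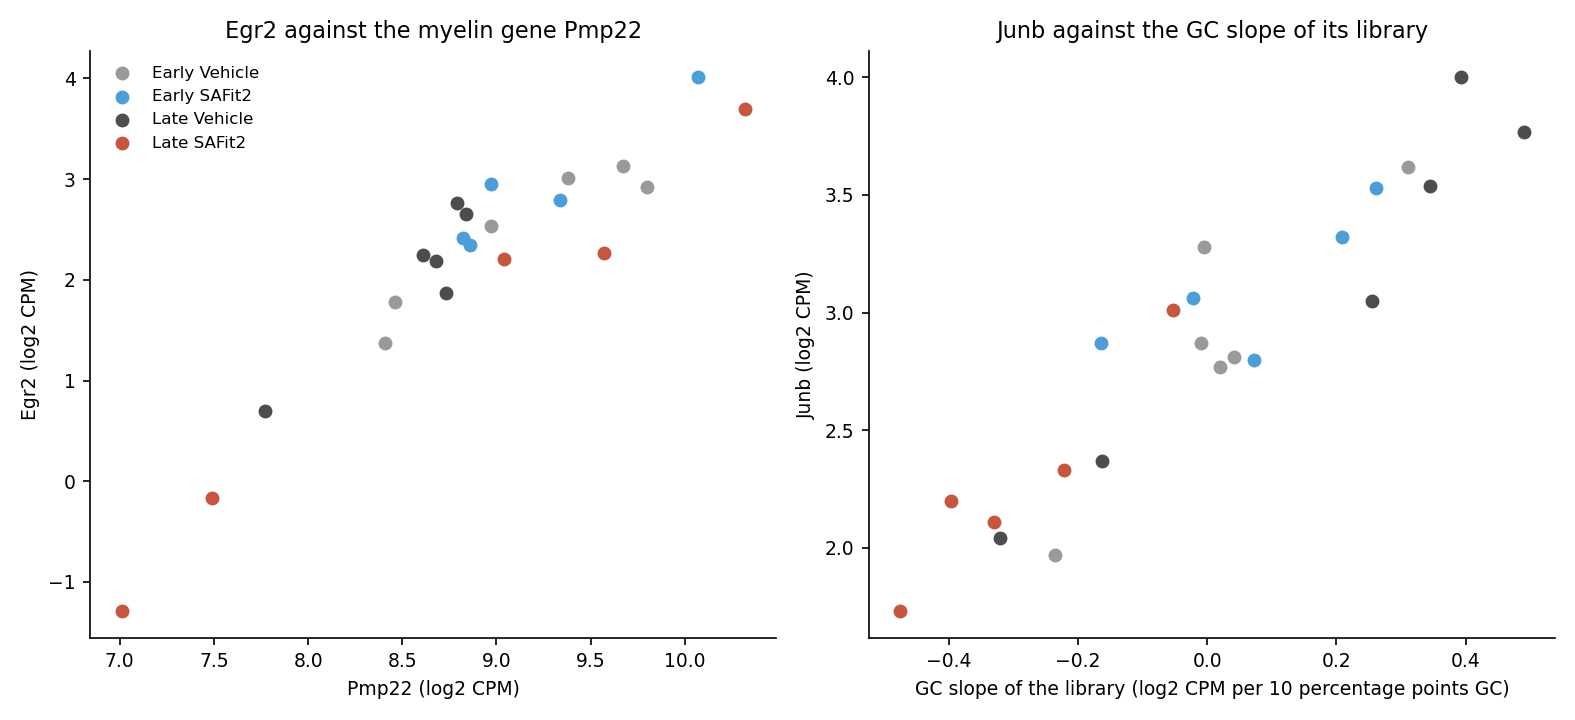
Left, Egr2 against the peripheral myelin gene Pmp22, both in log2 CPM. Right, Junb (log2 CPM) against the GC slope of its library (log2 CPM per 10 percentage points of GC). Each point is 1 of 22 mice, coloured by group. Egr2 rises with Pmp22 in all groups, with 2 Late SAFit2 mice at the lower end (-0.17 and -1.29), and Junb rises with the GC slope, with Late SAFit2 mice at slopes of -0.475 to -0.0531.

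Other genes of the same programme were read from lists of the pathway. Of 21 other immediate early transcription factors, 20 were tested (Fosl1 was not in the table), and after late treatment 2 were called lower and 2 higher, with a median log2 fold change of -0.23. In that comparison 12.1% of all genes were called, with a median of -0.05 over all genes. Egr4, a zinc finger factor, had -1.96 (SE 0.52, limma adjusted p = 0.0331) and Jund, the constitutive AP-1 subunit, -0.97 (limma adjusted p = 0.0361). Egr4 was low in level, at a mean of -1.72 log2 CPM in Late SAFit2 and 0.24 in Late Vehicle mice. Genes without reads stand at -3.154. Crem, a cAMP-responsive factor, had 0.64 (limma adjusted p = 0.0429) and Klf6, a zinc finger factor, 0.43 (limma adjusted p = 0.0498). The lower pair was GC-rich, Egr4 at 68.2% and Jund at 67.1%, while Crem had 43.2% and Klf6 42.4% GC. In the late comparison, none of these genes, nor any of the lists that follow, was called after GC and length correction.

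Of 26 other rapidly induced effector genes, 3 were called lower after late treatment and 1 higher (median -0.10), where 12.1% of all genes were called. The lower genes were Dusp5, a phosphatase of nuclear ERK (-1.57, limma adjusted p = 0.0382), Gadd45g, a stress sensor (-1.03, limma adjusted p = 0.0324), and Plk3, a polo-like kinase (-1.0, limma adjusted p = 0.0324). Dusp5 was low in level, at a mean of -0.66 log2 CPM (SD 1.33) in Late SAFit2 and 0.90 in Late Vehicle mice. The higher gene was Homer1, a scaffold of postsynaptic densities (0.63, limma adjusted p = 0.0361), whose transcript has 36.9% GC. None of 9 slower activity-induced genes was called, where Vgf had the lowest p (limma adjusted p = 0.0519), followed by Bdnf (limma adjusted p = 0.130) and Nptx2 (limma adjusted p = 0.248). A nominal p under 0.05 was found for 2 of 9, and for 5791 of all 16765 genes tested.

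Of 28 upstream regulators, 5 were called lower and 2 higher after late treatment (median -0.14), where 12.1% of all genes were called. Srf, which binds the CArG box, had -0.84 (limma adjusted p = 0.0477), its coactivator Mrtfa -0.67 (limma adjusted p = 0.0473), the CREB coactivator Crtc1 -0.76 (limma adjusted p = 0.0384), Mef2d -0.77 (limma adjusted p = 0.0491) and the ERK kinase Map2k2 -0.73 (limma adjusted p = 0.0346). Creb1 itself was higher by 0.49 (limma adjusted p = 0.0360), as was Mef2c by 0.61 (limma adjusted p = 0.0324). The 5 lower genes had 55% GC or more and the higher pair 40.8% or less. Of 8 heat shock genes, Hsp90aa1 was called, at 0.57 (limma adjusted p = 0.0460). Hspa5 (limma adjusted p = 0.0898) and Hspa1a (limma adjusted p = 0.101) were not. No gene of these 5 lists was called after early treatment or for the difference between early and late effects. For the effect over both timings, at a nominal p under 0.05, Egr4, Jund, Gadd45g, Map2k2 and Elk1 were lower and Klf6, Homer1 and Dusp6 higher. Of all genes, 13.2% passed that threshold.

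Among Vehicle mice, 4 genes of these lists were called, Late against Early, where 9.11% of all genes were called. Npas4, a factor induced by calcium influx into neurons, was lower in late mice (-1.63, limma adjusted p = 0.0130), as was Socs3, an inhibitor of cytokine signalling (-1.49, limma adjusted p = 0.0414). Dusp5 (1.40, limma adjusted p = 0.0462) and Bhlhe40 (0.29, limma adjusted p = 0.0372) were higher. Npas4, Socs3 and Dusp5 were low in level. In Late and Early Vehicle mice, Npas4 had means of -0.79 and 0.83 log2 CPM. Socs3 had -0.46 and 1.03, and Dusp5 0.90 and -0.49.

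The genes whose level followed the mean of the 10 immediate early genes most closely over the 22 mice, group means removed, were Gpr162 (r = 0.916), Rnf208 (0.912), Ddost (0.908), Lpcat4 (0.907), Tkt (0.905), Ap2m1 (0.905), Aldoa (0.902), Evl (0.901), St3gal3 (0.901) and Ccdc9 (0.899). Their median GC content was 57.7%, against 49.7% for all genes. No other immediate early gene was among them. After GC and length correction none of these genes was among the 10 most similar, which were then led by C530044C16Rik (r = 0.787), 4930481A15Rik (0.772) and Inhba (0.757) and had a median GC content of 49.5%.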

How the data were processed

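RNA was extracted by the authors from L4-L6 spinal cord with the Qiagen AllPrep kit, and directional libraries were made with NEBNext Ultra II. The submitters' processing notes name Trimmomatic, HISAT2, edgeR and mm10, without versions. According to the methods, library sizes were normalised with the TMM method. Values were deposited as log2 CPM, with a floor of -3.154 for genes without reads. Reads recovered from these values were whole numbers for 100.0% of entries (within 0.02 reads), with 11352989 to 24433349 reads on genes per library. They served for depth, RPKM, marker sums and voom. The titles of the Early SAFit2 mice read SAFit1, and their treatment label was used. The labels give days 3 and 4 for early treatment, where the series' design text and methods give days -3 and 4, used here. Of 17306 genes, 384 have no symbol in the table.

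Genes reaching -1 log2 CPM in 5 or more libraries were fitted with limma 3.58.1 in R 4.3.3 (group means, variance trend on expression), tested first on simulated data. The threshold was a Benjamini-Hochberg adjusted p under 0.05 and 1.2-fold, and a nominal p under 0.05 for the effect over both timings. For each of the 10 genes, two-sided exact permutation of mice was run besides. Correlations used deviations from group means, with 100000 permutations within groups and adjustment over 45 pairs or over 140 relations with 14 library measures. In the latter, markers were summed as CPM and taken as log2 with 0.1 added. GC content and length came from GENCODE M21 (16699 genes). For the correction, a loess trend (span 0.5) of each library relative to the mean library was subtracted. Promoters came from RefSeq (GRCm38.p6).

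The 10 genes and all lists were chosen with earlier results of these data known. Named besides the 10 were genes of the related lists that were called, or among the 3 lowest late p-values of their list, the 5 highest and 3 lowest pairs, and the 10 genes most like the mean of the 10. The genes most like Egr2 were chosen after their values were seen. Replicate numbers did not pair the mice (correlation of deviations -0.236 to 0.317). Labels do not say whether mice shared cages, so p-values measure the spread between these mice. Alternatives were other filters, pseudocounts, variance models, weights, scalings, samples, blocks, GC correction and leaving out each mouse. Chosen after seeing the data were a fit of uncorrected values limited to genes with known GC content, a fit without the 2 Late SAFit2 libraries lowest in Pmp22 and, for the correlations, the GC slope taken out and the neuron markers without Snap25, equally weighted or singly. One marker gene is not reported here and entered no marker sum. No library was identical to another. Computation used Python 3.11.15, numpy 2.4.6, pandas 2.3.3 and scipy, and plots matplotlib 3.10.9.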

Additional observations from a re-analysis of the deposited data

Results flagged for a closer look

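Of 40 groups of values (10 genes in 4 groups), 1 held a mouse set apart from the others of its group. Nr4a1 read 3.24 log2 CPM in Late SAFit2 replicate 1, where the next highest of the 5 mice had 2.66. Chance gives such a mouse in about 1 group in 20.

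The early effect of SAFit2 exceeded the late effect for 4 genes at a nominal limma p under 0.05. The difference on the log2 scale was 0.39 for Jun (exact permutation p = 0.0411), 1.09 for Junb (exact permutation p = 0.0433), 0.87 for Arc (exact permutation p = 0.0314) and 0.93 for Ier2 (exact permutation p = 0.0339). None of the 4 passed after adjustment over all genes tested.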

How the results depend on the processing

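The number of the 10 genes called in the late comparison (2, against 12.1% of all genes) was 1 with no filter, with log2(CPM + 2), with robust variance and with median centring (11.1 to 12.3% of all genes). It was 0 without the variance trend (0.37%), with limma voom (5.23%), with quantile normalization (7.34%), with only the 2 groups in the fit, and after GC and length correction with or without the replicate block. In the last 3 no gene of the table was called, with 5245, 2589 and 2533 at an unadjusted limma p under 0.05. For the effect over both timings (0, against 13.2%), the count was 1 without the variance trend (12.2%), with the replicate block (17.9%) and with GC and length correction, with or without that block (7.86 and 7.66%), and 2 without the 2 Late SAFit2 libraries lowest in Pmp22 (17.5%). Library quality weights gave 4 genes late (38.1% of all genes), 4 over both timings (38.2%), 3 for early minus late (30.3%) and 2 for Late against Early Vehicle (30.2%), which are close to the shares of all genes. The replicate block gave 3 genes in the late comparison (18.8%). The replicate numbers mark no shared litter or day, and only 2 of 10 pairs correlated above 0.1. Leaving out each of 22 mice gave 0 to 4 genes in the late comparison, 0 to 2 over both timings and 0 to 2 for early minus late. The median correlation of the 45 pairs (0.25) was 0.0499 after GC and length correction, 0.00297 with the GC slope taken out, and 0.184 to 0.327 without single mice.

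Signs turned for the following log2 fold changes, the largest of them for Egr2 without the 2 libraries lowest in Pmp22. Over both timings Egr2 was 0.0481 with log2(CPM + 2), and Fosb early was -0.0088 with voom. Quality weights gave Fos -0.028 and Fosb -0.28 late, Fosb -0.0075 and Jun -0.13 early, Fosb -0.14 over both timings and Fosb 0.27 for early minus late. Quantile normalization gave Jun -0.0072 early and Fosb 0.0082 between Vehicle groups. The replicate block gave Fos -0.084 late, and Fosb -0.064 and Ier2 -0.00014 early. GC and length correction gave Egr1 0.34 and Nr4a1 0.035 late, Fosb -0.053 and Jun -0.024 early, Nr4a1 0.067 over both timings, Egr1 -0.21 for early minus late, and Fos -0.033 and Ier2 -0.18 between Vehicle groups. With the replicate block added, these were Egr1 0.35 and Nr4a1 0.036 late, Fosb -0.094 early, Nr4a1 0.068 over both timings, Egr1 -0.21 for early minus late, and Fos -0.033 and Ier2 -0.18 between Vehicle groups. Without the 2 libraries lowest in Pmp22, Egr2 turned from -0.72 to 0.66 late and from 1.17 to -0.21 for early minus late, Fos was -0.34 late, Fos -0.0078, Egr1 -0.0031 and Egr2 0.55 over both timings, and Btg2 0.020 for early minus late.

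Without single mice, the ranges that crossed 0 were, late, -0.17 to 0.19 for Fos, -0.037 to 0.40 for Fosb and -0.21 to 0.067 for Egr1. Early, they were -0.13 to 0.22 for Fosb, -0.058 to 0.069 for Jun, -0.021 to 0.32 for Nr4a1 and -0.0044 to 0.20 for Ier2. Over both timings, they were -0.014 to 0.21 for Fosb, -0.0030 to 0.14 for Egr1, -0.43 to 0.19 for Egr2 and -0.17 to 0.0013 for Nr4a1. For early minus late, they were -0.39 to 0.047 for Fosb and -0.24 to 0.050 for Btg2. Between Vehicle groups, they were -0.084 to 0.12 for Fos, -0.30 to 0.027 for Fosb and -0.095 to 0.13 for Ier2. The cause of these changes was not tested. Among the 10 genes, Fosb (10 to 72 reads) and Ier2 (15 to 123 reads) carry the most counting error after Egr2 in Late SAFit2 replicate 2 (4 reads).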
